A study of Mus musculus with 14 samples.

Results

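The 78 mouse genes whose symbols are Mrpl or Mrps followed by a number are named for proteins of the mitochondrial ribosome. Their H3K4me3 signal was read in mouse prefrontal cortex after chronic social defeat. They were chosen by symbol alone from 21900 protein-coding genes of a RefSeq gene table (GRCm38.p6), 49 of them named for the large subunit (Mrpl) and 29 for the small subunit (Mrps). Each gene was represented by its strongest summit, the peak position with the highest mean over 13 libraries, within 2 kb of the gene or inside it. All 78 had such a summit and all 78 passed the filter on low values, against 15248 genes with a summit and 15201 tested in the whole table. Mrpl46 and Mrps11 shared a summit, so the 78 genes rest on 77 summits, and 37 of the 78 members had their summit within 2 kb of a boundary of another protein-coding gene as well.

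The mitochondrial ribosome translates the few messenger RNAs of mitochondrial DNA, all of which encode subunits of the respiratory chain and ATP synthase. Its RNAs come from mitochondrial DNA, while its proteins are encoded in the nucleus, made in the cytosol and imported, so that building it depends on many dispersed nuclear promoters. H3K4me3, trimethylation of lysine 4 on histone H3, marks the nucleosomes around active and poised promoters and is usually highest on the first nucleosomes past the start site. Neurons depend heavily on oxidative phosphorylation, and inherited defects of mitochondrial translation often affect the brain.

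Libraries came from 3 groups of adult male C57BL/6J mice, 10 to 12 weeks old. CSDS30 mice met an aggressive CD1 mouse daily for 30 days and lived beside one behind a perforated barrier between meetings (5 libraries). CSDS10 mice went through the same for 10 days (5 libraries). Control mice were kept in divided cages with no aggressor (3 libraries). Errors of group means are SDs over these libraries, 5, 5 and 3, throughout. Defeated mice were killed 24 h after their last session, having gone through behavioural tests shortly before, and the labels name no transgene or injected agent for any group. The strain is given as C57BL/6 in another label. The labels do not say how many animals each library holds, so p-values measure the spread between libraries.

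The table holds 153207 summits in 48695 regions, and its values are normalised counts, reads divided by 1 size factor per library. The libraries held 4512817 to 10887911 reads on summits, and the members' summits held 28 to 343 reads each in a library. Excitatory neuron markers had summits at 7 of 7 genes, with a median level of 46.4 normalised counts. Summits were also found at 7 of 8 inhibitory neuron, 7 of 7 astrocyte, 6 of 8 oligodendrocyte, 4 of 7 microglia and 6 of 6 endothelial markers, at medians of 37.9, 59.8, 48.7, 22.1 and 38.6 normalised counts. Markers of the neighbouring striatum had summits at 6 of 6 genes, with a median of 45.3, and those of the olfactory bulb at 3 of 4, with a median of 42.3, so H3K4me3 at these genes did not separate the dissected tissue from its neighbours. Markers with no summit included Sst, Mog, Cx3cr1, Csf1r, Aif1 and Doc2g. In tissue, fewer cells with a mark and less mark per cell cannot be told apart. No marker summit passed the test between groups, but the levels of several lists were uneven across them. Of 7 microglia markers 4 had a summit, and their library median averaged 25.5 ± 4.22 in CSDS30, 24.4 ± 5.78 in CSDS10 and 18.3 ± 2.10 normalised counts in control libraries. That of 7 inhibitory neuron markers averaged 37.3 ± 4.87 in CSDS30, 33.6 ± 5.6 in CSDS10 and 38.7 ± 2.85 in control libraries. That of 7 astrocyte markers averaged 51.3 ± 5.28 in CSDS30, 60.5 ± 6.28 in CSDS10 and 51.0 ± 1.76 in control libraries. That of 6 oligodendrocyte markers averaged 47.2 ± 6.4 in CSDS30, 43.5 ± 3.63 in CSDS10 and 50.9 ± 10.1 in control libraries.

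The promoters of 6 members carry much of what follows and are printed with the sites that letter motifs found. They were taken from the RefSeq promoter table (GRCm38.p6), 250 bases before to 50 bases past the annotated start, so that the start is base 251 of 300. Mrps11 (chr7:78782881-78783180, plus strand) is shown for the highest summit, which it shares with Mrpl46, Mrpl37 (chr4:107066817-107067116, minus strand) for the next highest, and Mrpl45 (chr11:97315466-97315765, plus strand) and Mrps26 (chr2:130563507-130563806, plus strand) for low ones. Mrps27 (chr13:99344536-99344835, plus strand) and Mrps33 (chr6:39810887-39811186, minus strand) are shown as 2 of the members named for their differences between groups. Capitals mark matches to NRF1, ETS, YY1 or SP1 motifs on either strand.
Mrps11: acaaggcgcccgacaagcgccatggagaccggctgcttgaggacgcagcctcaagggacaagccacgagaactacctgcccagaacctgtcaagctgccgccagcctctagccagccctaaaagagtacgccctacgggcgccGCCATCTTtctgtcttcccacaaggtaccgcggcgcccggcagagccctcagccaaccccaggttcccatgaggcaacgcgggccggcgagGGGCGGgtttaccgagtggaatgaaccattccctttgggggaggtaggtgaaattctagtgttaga
Mrpl37: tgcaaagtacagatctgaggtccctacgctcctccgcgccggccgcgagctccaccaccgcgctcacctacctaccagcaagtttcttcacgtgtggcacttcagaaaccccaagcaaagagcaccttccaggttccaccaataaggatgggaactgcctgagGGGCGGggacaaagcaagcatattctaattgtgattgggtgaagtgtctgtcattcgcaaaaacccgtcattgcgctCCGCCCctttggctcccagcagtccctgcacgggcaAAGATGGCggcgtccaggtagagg
Mrpl45: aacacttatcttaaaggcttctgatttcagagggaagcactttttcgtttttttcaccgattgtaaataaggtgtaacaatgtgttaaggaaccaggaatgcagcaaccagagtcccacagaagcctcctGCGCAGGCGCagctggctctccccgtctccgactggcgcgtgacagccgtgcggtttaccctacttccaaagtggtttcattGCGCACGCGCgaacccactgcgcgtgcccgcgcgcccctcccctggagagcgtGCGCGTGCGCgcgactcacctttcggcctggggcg
Mrps26: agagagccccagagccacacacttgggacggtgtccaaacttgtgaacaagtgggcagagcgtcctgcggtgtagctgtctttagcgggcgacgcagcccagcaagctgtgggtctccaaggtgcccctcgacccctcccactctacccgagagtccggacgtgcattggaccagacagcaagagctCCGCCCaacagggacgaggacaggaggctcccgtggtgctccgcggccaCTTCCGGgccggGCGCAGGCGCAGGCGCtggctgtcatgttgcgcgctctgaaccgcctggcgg
Mrps27: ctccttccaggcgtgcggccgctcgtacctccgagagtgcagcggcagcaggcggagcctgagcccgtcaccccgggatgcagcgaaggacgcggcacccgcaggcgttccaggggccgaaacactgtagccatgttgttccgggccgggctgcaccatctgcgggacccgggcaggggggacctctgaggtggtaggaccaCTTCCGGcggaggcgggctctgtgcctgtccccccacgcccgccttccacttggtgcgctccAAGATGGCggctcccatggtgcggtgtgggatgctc
Mrps33: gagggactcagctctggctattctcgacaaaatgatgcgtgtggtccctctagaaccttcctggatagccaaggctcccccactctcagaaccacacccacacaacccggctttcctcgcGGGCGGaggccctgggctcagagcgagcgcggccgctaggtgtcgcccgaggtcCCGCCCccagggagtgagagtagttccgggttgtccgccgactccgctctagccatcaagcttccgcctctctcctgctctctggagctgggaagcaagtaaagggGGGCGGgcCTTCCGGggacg
In these letters Mrpl45 had 3 NRF1 matches, Mrps26 had 2 overlapping NRF1 matches with 1 ETS and 1 SP1 match, and Mrps27 had 1 ETS and 1 YY1 match. Mrps11 had 1 YY1 and 1 SP1 match, Mrpl37 had 1 YY1 and 2 SP1 matches, and Mrps33 had 1 ETS and 3 SP1 matches. A match describes the letters only and is not a bound site.

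H3K4me3 at the mitochondrial ribosomal protein genes was higher at its strongest summit than at the typical gene with a summit, and the genes resembled each other closely. Their median level was 118.3 normalised counts as a mean over 13 libraries, with 50% of them between 109 and 135, against a median of 97.6 over all 15248 genes, with 50% between 67.7 and 117. Of the 78 members, 70 (89.7%) lay above the median of all genes, 41 (52.6%) above its upper quartile and 1 below its lower quartile. The highest and lowest members differed 3.35-fold.

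The library median of the members averaged 116 ± 2.95 in CSDS30, 125 ± 5.11 in CSDS10 and 119 ± 2.27 normalised counts in control libraries (SD, n = 5, 5 and 3). All genes averaged 91.6 ± 5.03 in CSDS30, 98.0 ± 5.65 in CSDS10 and 97.1 ± 0.784 in control libraries. The members' median was above that of all genes in 13 of 13 libraries, by 20 to 32.2 normalised counts. It was above that of 83 cytosolic ribosomal protein genes, which build the ribosome of the cytoplasm, in 13 of 13 libraries, by 0.5 to 14.1, and above that of 83 nuclear oxidative phosphorylation genes in 9 of 13, with differences from -7.3 to 8.5. Over all 13 libraries, the medians of those lists were 113.5 and 120.1 normalised counts.

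That order held for the height of the strongest summit and turned round for the summed signal. When all summits within 2 kb of a gene were added, the median member held 455 normalised counts, against 497 for all genes, 532 for cytosolic ribosomal protein genes and 544 for oxidative phosphorylation genes. The summed median of the members was then below each of these in 13 of 13 libraries. The region around the strongest summit held a median of 4 summits spread over 540 bp for members, 5 summits over 773 bp for all genes, 5 over 709 bp for cytosolic ribosomal protein genes and 5 over 677 bp for oxidative phosphorylation genes. The sum covers the whole gene, so a longer gene can hold more summits, and gene length was not tested.

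Levels were close between the subunits and between old and newer parts of the ribosome. Genes named for the large subunit had a median of 117 normalised counts (n = 49) and those named for the small subunit 122 (n = 29). The 44 members with a counterpart in the bacterial ribosome had a median of 119.2, against 116.8 for the 34 without one. Replicate libraries of a group varied by a median of 14.1% (coefficient of variation) at the members, which is 1.49 times the counting error of 9.44% alone, against 16.5% and 1.51 times at all genes. The variation ran from 6.62% at Mrpl42 to 27.8% at Mrpl45, the gene with the lowest level. PCR copies could not be told from separate molecules, as reads carried no molecular identifier, so the counting error is a lower limit.

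The top of the order was the summit between Mrpl46 and Mrps11 (chromosome 7, 78782919-78782920), at 222.5 normalised counts. Mrpl46 encodes a large-subunit protein specific to mitochondria, and Mrps11 the counterpart of a bacterial small-subunit protein. Its values were 185, 247, 209, 270 and 215 in CSDS30, 188, 181, 289, 242 and 217 in CSDS10, and 240, 213 and 197 in control libraries. The 3 groups overlapped, with means of 225 in CSDS30, 223 in CSDS10 and 217 in control libraries.

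Mrpl37, a large-subunit protein specific to mitochondria (chromosome 4, 107066721-107066722), came next at 202.8 normalised counts. Its values were 160, 194, 262, 181 and 206 in CSDS30, 178, 184, 199, 234 and 227 in CSDS10, and 183, 202 and 228 in control libraries, and the groups overlapped. Mrpl21 and Mrpl33, both counterparts of bacterial large-subunit proteins, followed at 186.3 and 157.0 normalised counts. The remaining 73 members lay below these 5.

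The lowest member was Mrpl45, which in human mitochondria lies at the exit of the ribosome's tunnel and holds it to the inner membrane. Its summit (chromosome 11, 97315986-97315987) averaged 66.4 normalised counts, with 68.9, 102, 75.7, 81.3 and 49.3 in CSDS30, 59.1, 39.5, 82.8, 55.9 and 75.6 in CSDS10, and 79.0, 53.9 and 41.3 in control libraries. These values spread widely within each group. The other low members were Mrpl24 (85.2), the mitochondria-specific Mrps26 (86.2), Mrps21 (88.3) and Mrpl27 (89.1).

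**Figure D1:**
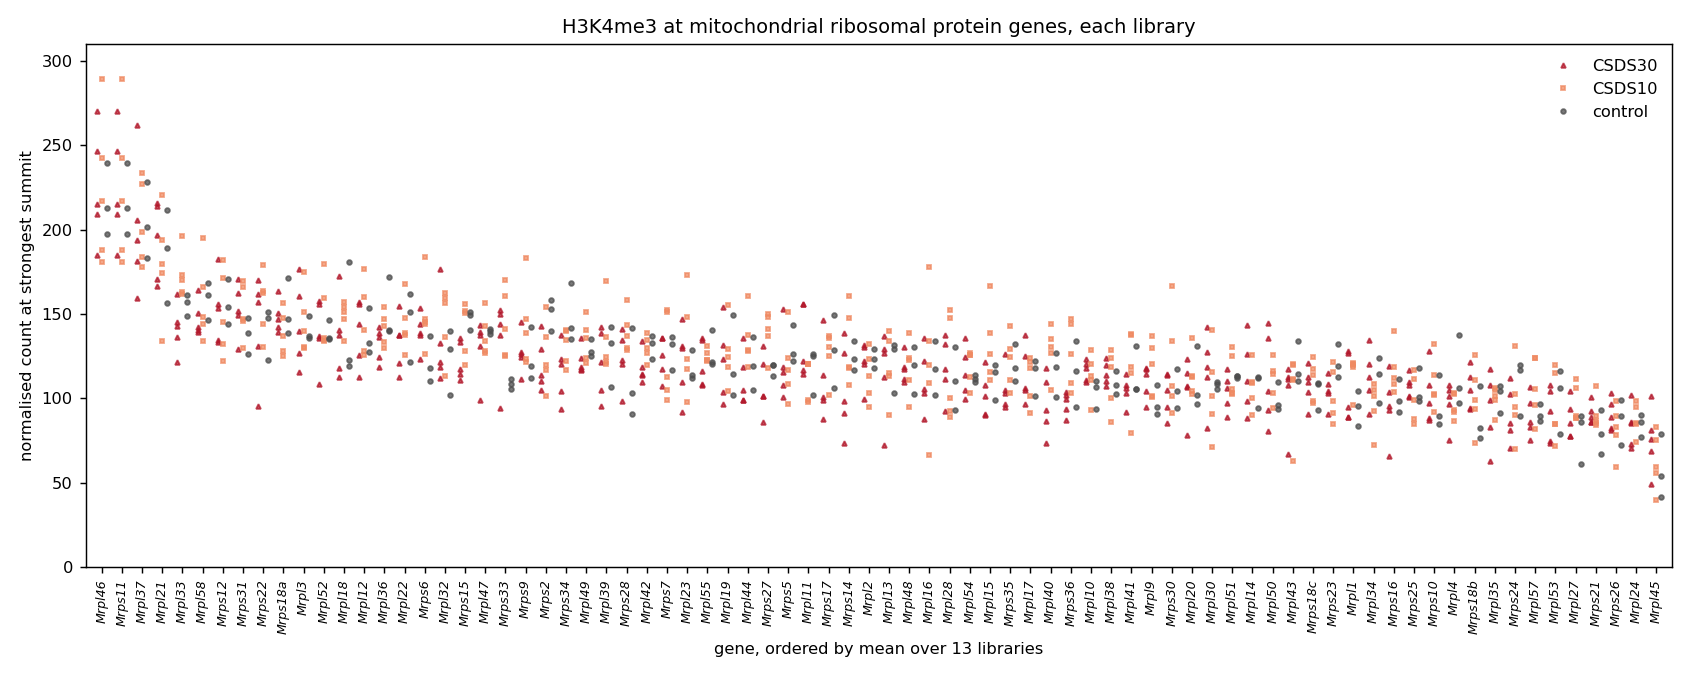
H3K4me3 at the strongest summit of each of the 78 genes (y axis, normalised count) in every library, with genes ordered by their mean over 13 libraries (x axis) and points marked by group, CSDS30, CSDS10 and control. The order runs from 222.5 at Mrpl46 and Mrps11 to 66.4 at Mrpl45, and the 3 groups lie over each other along it.

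Past the annotated start, the mark of these genes was concentrated on one position. Of the 78, 69 have a start in the promoter table, and the strongest summit lay a median of 133 bp downstream of it, against 145 bp over all 12148 genes with a start. It lay within 500 bp of the start in 63 of 69 (91.3%, against 73.1% of all genes). That share was 87.1% for cytosolic ribosomal protein genes and 94.1% for oxidative phosphorylation genes. For 41 of 69 (59.4%) the strongest summit lay 80 to 200 bp past the start, against 34.2% of all genes. In the same 2 lists it did so for 45.2% and 67.6%. A summit of any height stood in that window in 64 of 69 (92.8%, against 71.4% of all genes). It did in 88.7% of cytosolic ribosomal protein genes and 92.6% of oxidative phosphorylation genes. From 100 bp before to 80 bp past the start only 8 of 69 had a summit (11.6%), against 31.8% of all genes. In those 2 lists the shares were 8.06% and 7.35%, so this spacing was not particular to the members.

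The level was highest 80 to 200 bp past the start and was lower further downstream. The 64 summits 80 to 200 bp past it had a median of 112 normalised counts. The median was 85.2 from 200 to 300 bp, 79.5 from 300 to 450 bp, 58.6 from 450 to 600 bp, 34.6 from 600 to 800 bp and 27.0 from 800 to 1500 bp. Close to the start few summits stood, with medians of 57.0 for 5 summits in the 100 bp before it and 59.1 for 2 summits in the 80 bp past it. Further upstream, the median was 68.0 from 300 to 100 bp before the start (54 summits), 67.9 from 500 to 300 bp (49 summits), 46.2 from 800 to 500 bp and 37.3 from 1500 to 800 bp before it. Summits of the same gene are not independent, so the profile is a description.

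For 6 of the 69 the strongest summit lay beyond 500 bp. Mrpl2 (4430 bp past its start) and Mrps18b (6501 bp) had it past the other end of the gene, beside Cul7 and Atat1. Mrpl34 (1395 bp before its start, beside Abhd8), Mrpl40 (723 bp before, beside Hira) and Mrpl18 (632 bp before, beside Tcp1) had it on the side of a neighbour, and Mrpl20 had it 860 bp past the start. Values of these 6 are values of the summit chosen by the rule, and all but those of Mrpl20 may belong to the neighbour. The same caution holds for members with a nearer upstream summit on the side of an opposite-strand gene, such as Mrps12 and Mrpl32.

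**Figure D2:**
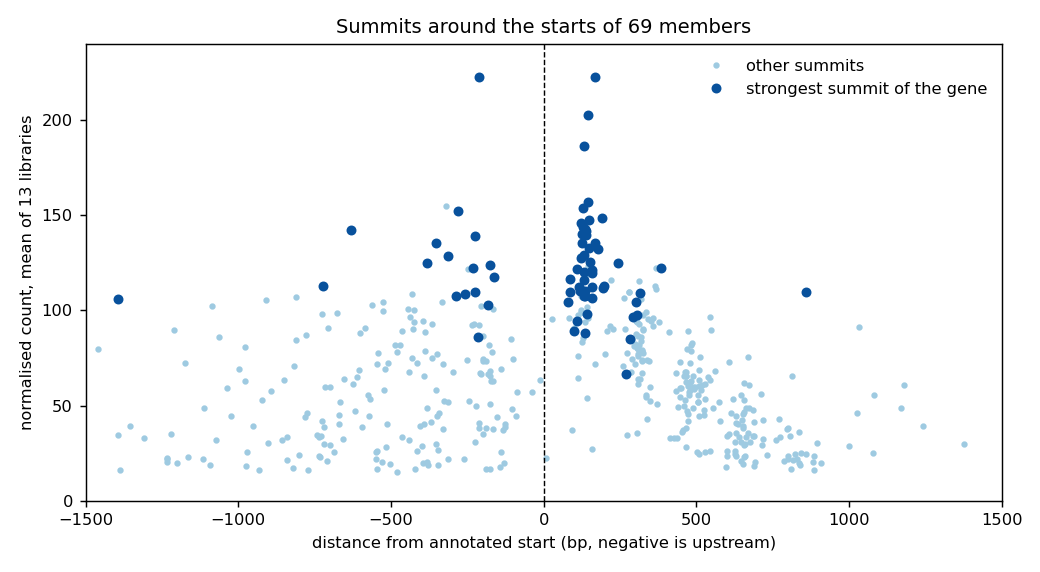
Summits of the 69 genes with an annotated start, placed by distance from that start (x axis, bp, negative is upstream) and by mean level over 13 libraries (y axis, normalised count), the strongest of each gene in dark blue and all others in light blue; summits beyond 1500 bp are not drawn. Of the 69 strongest summits, 41 stand 80 to 200 bp past the start, and few summits of any height stand from 100 bp before to 80 bp past it.

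Many of these genes start back to back with another gene. An opposite-strand protein-coding start lay from 100 bp of overlap to 1000 bp upstream in 24 of 69 (34.8%), against 11.7% of all genes, 14.5% of cytosolic ribosomal protein genes and 29.4% of oxidative phosphorylation genes. The median distance between the 2 starts was 139 bp. Several partners also serve mitochondria. Mrps12, which sits at the decoding centre, starts 147 bp from Sars2, the mitochondrial seryl-tRNA synthetase. Mrpl47 starts 308 bp from Ndufb5, a subunit of respiratory complex I, and Mrpl43 starts 116 bp from Twnk, the helicase that replicates mitochondrial DNA.

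All 24 pairs had a summit on both sides. The member's side held the higher summit in 13 and the partner's side in 11, with medians of 107.7 and 108.1 normalised counts. Pairs ran from strongly one-sided to even. The Mrpl46 side of its promoter, 42 bp from the start of Mrps11, stood at 222.5 normalised counts and the Mrps11 side at 77.1. The Mrpl37 side stood at 203, against 122 on the side of Cyb5rl, a reductase gene, and the Mrps12 side at 98.7, against 153 on the side of Sars2.

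Mrpl32 stood at 99.3, against 135 for the proteasome gene Psma2, and Mrpl49 at 100, against 129 for Fau, which encodes a cytosolic ribosomal protein. Mrpl47 stood at 135, against 94.1 for Ndufb5, and Mrpl43 at 108, against 71.9 for Twnk. The strongest summit lay upstream of the start in 11 of the 24 genes with a partner (45.8%) and in 6 of the 45 without one (13.3%). The level of the strongest summit was nearly the same in both sets, with medians of 120.2 and 119.7 normalised counts. In the 24 genes with a partner that summit could be the partner's, and on the member's own side their median was 107.7.

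**Figure D3:**
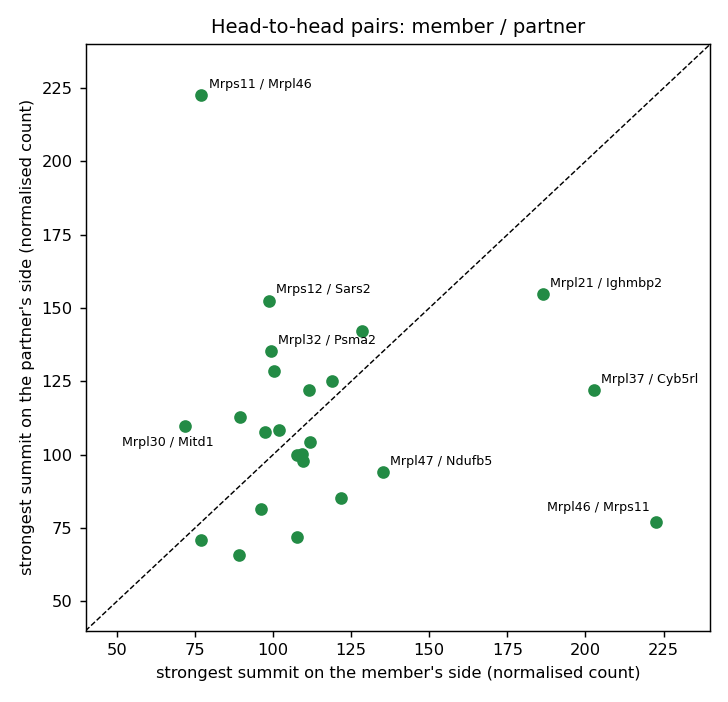
The strongest summit on the side of the mitochondrial ribosomal protein gene (x axis) and on the side of its head-to-head partner (y axis) for 24 pairs, both in normalised counts as means over 13 libraries; the dashed line marks equal levels. Of the 24 points 13 lie below the line, where the mitochondrial ribosomal protein side is higher, and Mrpl46 with Mrps11 appears from both sides, at 222.5 and 77.1.

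The promoters shared short letter motifs more often than promoters in general. Each motif was searched on both strands of the 300-base window in 69 members and in all 12148 promoters. NRF1 (GCGC, any base and TGCGC), named for a factor that activates many nuclear genes of mitochondria, matched in 13 of 69 (18.8%, against 9.46% of all promoters). ETS (CCGGAAG), the core read by GABP and related factors, matched in 25 (36.2%, against 16.5%). YY1 (AAGATGGC) matched in 12 (17.4%, against 4.2%). At least 1 of these 3 matched in 42 members (60.9%), against 26.9% of all promoters. SP1 (GGGCGG) went the other way, with 34 of 69 (49.3%) against 64.6%.

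The other motifs were close to their background. A TATAAA box matched in 4 members (5.8%, against 6.96%), CCAAT in 27 (39.1%, against 38%), the E-box (CACGTG) in 5 (7.25%, against 9.74%) and TCTCG followed at once by its reverse complement in 1 (1.45%, against 0.988%). Cytosolic ribosomal protein promoters held ETS about as often (37.1%) and NRF1 and YY1 each in 9.68%, and oxidative phosphorylation promoters held NRF1 in 23.5%, ETS in 25% and YY1 in 14.7%. YY1 matches lay close to the start. The first base of 8 of the 12 matches in members (66.7%) fell at or past the start, against 52.1% of 528 matches in all promoters, with a median 15 bases past it. For NRF1 and ETS the median first base lay 43.5 and 16.5 bases before the start. The GC content of the member promoters had a median of 58.3%, against 61.3% of all promoters.

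Levels with and without a motif overlapped. Members with a YY1 match had a median of 132 normalised counts (n = 12) and those without 116 (n = 57). These levels are of the strongest summit. At Mrps11, Mrps12, Mrpl32, Mrpl49, Mrps7 and Mrps27, all with a YY1 match, it lay on the side of a head-to-head partner. On their own side these members stood at 77.1, 98.7, 99.3, 100, 119 and 112 normalised counts, so the summit rule bears on the YY1 median. Members with NRF1 had 110 (n = 13) and those without 121 (n = 56), and for ETS the medians were 113 (n = 25) and 120 (n = 44). These are descriptions with no test, and the motif sets share members.

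After 10 days of defeat, no mitochondrial ribosomal protein gene differed from control at an adjusted p under 0.05. In CSDS10 against control, limma called 0 of 152270 summits, 0% of those tested, and edgeR and DESeq2 on the recovered reads also called 0. Before adjustment 4891 summits had p under 0.05 by limma, 4599 by edgeR and 5410 by DESeq2. The members had a median log2 fold change of 0.034, with 46 above 0 and 32 below (59.0% above, against 53.3% of all genes, whose median was 0.012), and a range from -0.27 to 0.40. Under loess offsets, a scaling that sets the average change to 0 at every level, the median was 0.011 with 41 above 0 (52.6%). For all genes it was -0.001, with 49.6% above 0. An unadjusted p under 0.05 was found for 3 members with higher values (3.85%, against 1.78% of all genes) and 0 with lower values (against 1.03%). The 95% interval lay within 1.5-fold either way for 72 of the 78 and within 2-fold for all 78. The members' median moved to 0.066, with 56 above 0, without control replicate 1, and to 0.006, with 41 above 0, without control replicate 3; it also moved over 1.5 times without control replicate 2 (0.019) and without CSDS10 replicates 1 (0.054) and 3 (0.020). In the same comparison the microglia markers had log2 fold changes above 0 in 4 of 4, with a median of 0.294. Inhibitory neuron markers were above 0 in 1 of 7, with a median of -0.285. Astrocyte markers were above 0 in 6 of 7 (median 0.116) and oligodendrocyte markers in 2 of 6 (median -0.107). Excitatory neuron markers were above 0 in 5 of 7 (median 0.063) and endothelial markers in 3 of 6 (0.015). Striatal markers were above 0 in 2 of 6 (-0.054) and olfactory bulb markers in 1 of 3 (-0.155). The part of these markers in the members' values was not tested.

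The groups did not overlap at 2 members, both with higher values (2.56%, against 1.65% of all genes), and at 0 with lower values (against 1.22%). Mrps33, a small-subunit protein specific to mitochondria (chromosome 6, 39810788-39810789), had 141, 161, 170, 125 and 125 normalised counts in CSDS10, against 108, 111 and 106 in control libraries. Every CSDS10 library stood above every control library. The means were 145 ± 20.6 in CSDS10 and 108 ± 2.87 in control libraries (SD), and the log2 fold change was 0.40 ± 0.15 (SE, limma unadjusted p = 0.0112, adjusted p = 1.00). For the sum of the gene's summits it was 0.22.

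Mrpl33 (chromosome 5, 31614095-31614096) had 163, 196, 162, 173 and 170 normalised counts in CSDS10, against 161, 157 and 149 in control libraries. The lowest CSDS10 library stood just above the highest control library, and the log2 fold change was 0.15 ± 0.12 (SE) and 0.09 for the sum of summits. Mrps28, a small-subunit protein, had 144, 130, 158, 137 and 129 in CSDS10, against 142, 103 and 90.6 in control libraries. The groups overlapped through control replicate 1, and the log2 fold change was 0.34 ± 0.15 (SE). It was 0.52 without that library, 0.20 without control replicate 3 and 0.07 for the sum of summits.

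Mrps6, the counterpart of a bacterial small-subunit protein, averaged 149 ± 20.95 in CSDS10 and 122 ± 13.8 in control libraries, a log2 fold change of 0.29 ± 0.13 (SE). Its summit also lies beside Slc5a3, a myo-inositol transporter gene, and with all summits of the gene summed the log2 fold change was -0.04. Mrpl27, a counterpart of a bacterial large-subunit protein, averaged 96.8 ± 11.2 in CSDS10 and 78.7 ± 15.6 in control libraries, a log2 fold change of 0.31 ± 0.17 (SE), and 0.13 without control replicate 2.

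The lower values were smaller in size. Mrps2, the counterpart of a bacterial small-subunit protein, averaged 126 ± 20 in CSDS10 and 150 ± 9.44 in control libraries, a log2 fold change of -0.27 ± 0.14 (SE). Mrps23 had -0.26 ± 0.15, Mrpl4, which lines the exit tunnel, -0.24 ± 0.16 and Mrpl34 -0.23 ± 0.16 (log2 fold change and SE). The Mrps2 value was -0.07 at the strongest summit within 2 kb of a boundary. That is another summit than the one used, which lies 131 bp past the annotated start. The Mrps23 value was 0.01 and the Mrpl4 value -0.02 for the sum of their summits, the Mrpl4 value was -0.09 without control replicate 3, and the Mrpl34 value was 0.01 at the strongest summit within 500 bp of its start.

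After 30 days, again no member differed from control at an adjusted p under 0.05. In CSDS30 against control limma, edgeR and DESeq2 each called 0 of 152270 summits (0%). Before adjustment 5194 summits had p under 0.05 by limma, 4933 by edgeR and 5753 by DESeq2. Both defeat groups were set against the same 3 control libraries. The members had a median log2 fold change of -0.034 and a range from -0.36 to 0.38. Of them 33 were above 0 and 45 below (42.3% above, against 34.1% of all genes, whose median was -0.072). Under loess offsets the members' median was 0.061 with 49 above 0 (62.8%, against 48.6% of all genes, whose median was -0.005). An unadjusted p under 0.05 was found for 0 members with higher values (against 0.5% of all genes) and 3 with lower values (3.85%, against 4.41%). The interval lay within 1.5-fold either way for 69 of 78 and within 2-fold for all 78. Without control replicate 1 the median moved to -0.022, and without CSDS30 replicate 4 to -0.020. The microglia markers were above 0 in 4 of 4, with a median log2 fold change of 0.325. Inhibitory neuron markers were above 0 in 5 of 7, with a median of 0.091. Astrocyte markers were above 0 in 4 of 7 (median 0.02) and oligodendrocyte markers in 3 of 6 (median -0.054). Excitatory neuron markers were above 0 in 2 of 7 (median -0.099) and endothelial markers in 4 of 6 (0.055). Striatal markers were above 0 in 1 of 6 (-0.178) and olfactory bulb markers in 2 of 3 (0.015). The part of these markers was not tested.

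Groups apart were seen at 1 member with lower values (1.28%, against 3.11% of all genes) and at 0 with higher values (against 0.585%). That gene was Mrps15, the counterpart of a bacterial small-subunit protein (chromosome 4, 126047097-126047098). It had 118, 111, 134, 115 and 136 normalised counts in CSDS30, against 140, 149 and 151 in control libraries. Every CSDS30 library stood below every control library, with a log2 fold change of -0.27 ± 0.13 (SE). It was -0.17 under loess offsets and -0.03 for the sum of the gene's summits.

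Mrps34, a small-subunit protein specific to mitochondria, gave the smallest p in this comparison. It had 138, 93.7, 104, 121 and 123 normalised counts in CSDS30, against 168, 142 and 135 in control libraries. CSDS30 replicate 1 overlapped the lowest control library. The means were 116 ± 17.2 in CSDS30 and 148 ± 17.6 in control libraries (SD), and the log2 fold change was -0.36 ± 0.14 (SE, limma unadjusted p = 0.0146, adjusted p = 1). For the sum of the gene's summits it was -0.07. The summit (chromosome 17, 24895265-24895266) also lies within 2 kb of Eme2 and Nme3.

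Mrps2 averaged 120 ± 15.6 in CSDS30 and 150 ± 9.44 in control libraries, a log2 fold change of -0.33 ± 0.14 (SE). Its summit lies 131 bp past the annotated start, inside the gene and over 2 kb from both boundaries. The strongest summit within 2 kb of a boundary, which is another summit, gave 0.11. Mrpl40, a large-subunit protein specific to mitochondria, had a log2 fold change of -0.28 ± 0.16 (SE), at the summit 723 bp before its start, and -0.004 at the strongest summit within 500 bp of that start. Among higher values, Mrps33 averaged 136 ± 23.9 in CSDS30 and 108 ± 2.87 in control libraries, a log2 fold change of 0.30 ± 0.15 (SE). In 4 of its 5 CSDS30 libraries the value was above every control library, and replicate 5, at 94.2, was below them. The sum of its summits gave 0.08.

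Mrpl45 averaged 75.3 ± 19.0 in CSDS30 and 58.0 ± 19.2 in control libraries, a log2 fold change of 0.38 ± 0.24 (SE). It was -0.27 at the strongest summit within 500 bp of a gene boundary. That rule leaves out the summit used here, 270 bp past the annotated start. Mrps18b had 0.25 ± 0.17, at a summit beside Atat1, and 0.11 within 500 bp of its start, 0.40 without control replicate 1 and 0.15 without control replicate 2. Mrps6 had 0.20 ± 0.13, and -0.16 for the sum of its summits (log2 fold change and SE). The SD of Mrpl45 was as large as the difference between its means.

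CSDS30 and CSDS10 were also compared directly, which is the test of whether the durations differ. By limma, edgeR and DESeq2 alike, 0 of 152270 summits (0%) were called. Before adjustment 7795 had p under 0.05 by limma, 6838 by edgeR and 7795 by DESeq2. The members had a median log2 fold change of -0.079, with 23 above 0 and 55 below (29.5% above, against 31.6% of all genes, whose median was -0.082). Their median was -0.052 without CSDS30 replicate 2, the library with the lowest median over members (112.5 normalised counts) and over all genes (82.8). Under loess offsets the members' median was 0.034 with 49 above 0 (62.8%, against 49.8% of all genes, whose median was -0.001). An unadjusted p under 0.05 was found for 8 members with lower values (10.3%, against 9.03% of all genes) and 0 with higher values (against 0.704%). Groups were apart at 0 members in either direction (against 0.112% of all genes higher and 1.01% lower). The interval lay within 1.5-fold either way for 71 of 78 and within 2-fold for all 78. The microglia markers were above 0 in 2 of 4, with a median of 0.005. Inhibitory neuron markers were above 0 in 6 of 7, with a median of 0.347. Astrocyte markers were above 0 in 1 of 7 (median -0.174) and oligodendrocyte markers in 6 of 6 (median 0.089). Excitatory neuron markers were above 0 in 4 of 7 (median 0.045) and endothelial markers in 3 of 6 (-0.014). Striatal markers were above 0 in 1 of 6 (-0.139) and olfactory bulb markers in 2 of 3 (0.166). The part of these markers was not tested.

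At its strongest summit, Mrpl40 had the lowest log2 fold change of the members. It had 93.2, 73.4, 118, 86.4 and 109 normalised counts in CSDS30, against 130, 144, 127, 105 and 135 in CSDS10. The ranges overlapped between 105 and 118. The means were 96.0 ± 17.8 in CSDS30 and 128 ± 14.5 in CSDS10 (SD), and the log2 fold change was -0.43 ± 0.14 (SE, limma unadjusted p = 0.00343, adjusted p = 0.963, the smallest adjusted p of any member). Its summit lies on the side of Hira, a histone chaperone gene. At the strongest summit within 500 bp of the start of Mrpl40 the log2 fold change was -0.08, and for the sum of summits -0.17.

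Mrps27, a small-subunit protein with RNA-binding repeats, had 131, 102, 86.2, 121 and 101 in CSDS30, against 149, 141, 150, 137 and 118 in CSDS10, a log2 fold change of -0.37 ± 0.12 (SE). Its summit (chromosome 13, 99344554-99344555) lies within the promoter printed above, 232 bp before the start of Mrps27 and on the side of Ptcd2. The sum of summits gave -0.17. CSDS10 replicate 5 overlapped the 2 highest CSDS30 libraries.

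Mrpl33 averaged 142 ± 14.6 in CSDS30 and 173 ± 13.8 in CSDS10, a log2 fold change of -0.29 ± 0.10 (SE), and -0.15 under loess offsets. CSDS30 replicate 1, at 162.1, overlapped the lowest CSDS10 library, at 161.9. Mrps36 averaged 97.1 ± 6.81 in CSDS30 and 126 ± 19.7 in CSDS10, a log2 fold change of -0.36 ± 0.13 (SE), and -0.19 for the sum of summits. The highest values went to Mrpl11 (0.25 ± 0.13), a counterpart of the bacterial protein at the factor-binding site, Mrpl34 (0.23 ± 0.14), Mrpl45 (0.27 ± 0.21) and Mrpl30 (0.18 ± 0.15; log2 fold change and SE). Mrpl34 had -0.20 at the strongest summit within 500 bp of its start. Mrpl45 had -0.06 within 500 bp of a boundary, a rule that leaves out its summit 270 bp past the start. Mrpl30 ran from 0.05 without CSDS10 replicate 4 to 0.30 without CSDS30 replicate 5, and was 0.10 without CSDS30 replicate 1 and 0.30 without CSDS10 replicate 3.

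**Figure D4:**
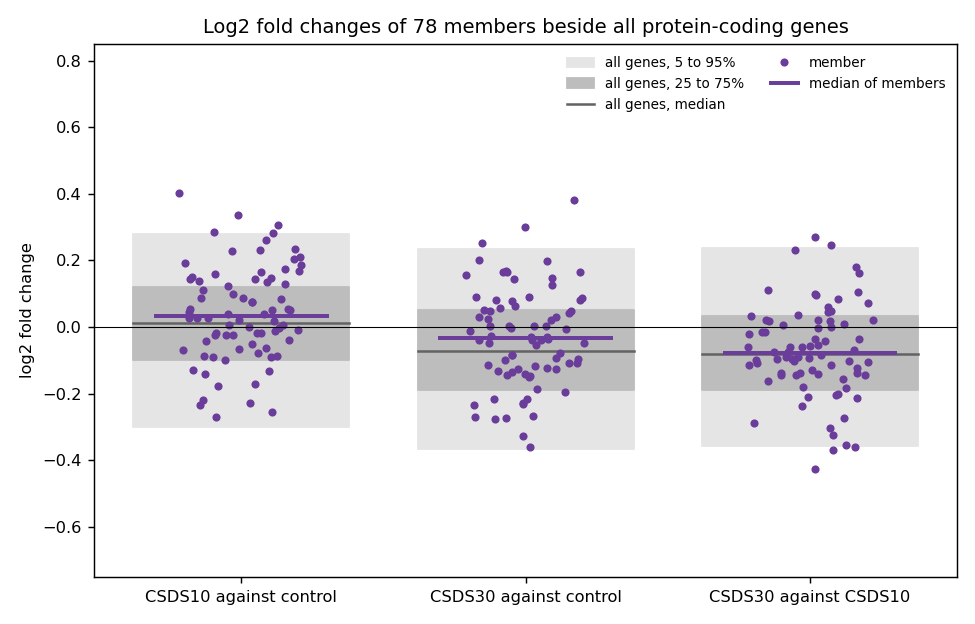
Log2 fold changes of the 78 genes (points, y axis) in the 3 comparisons (x axis), with their median as a thick line, over the range of all protein-coding genes tested (light band 5 to 95%, dark band 25 to 75%, thin line median). The medians of the 78 genes are 0.034, -0.034 and -0.079 beside 0.012, -0.072 and -0.082 for all genes, and no gene passed an adjusted p of 0.05.

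**Figure D5:**
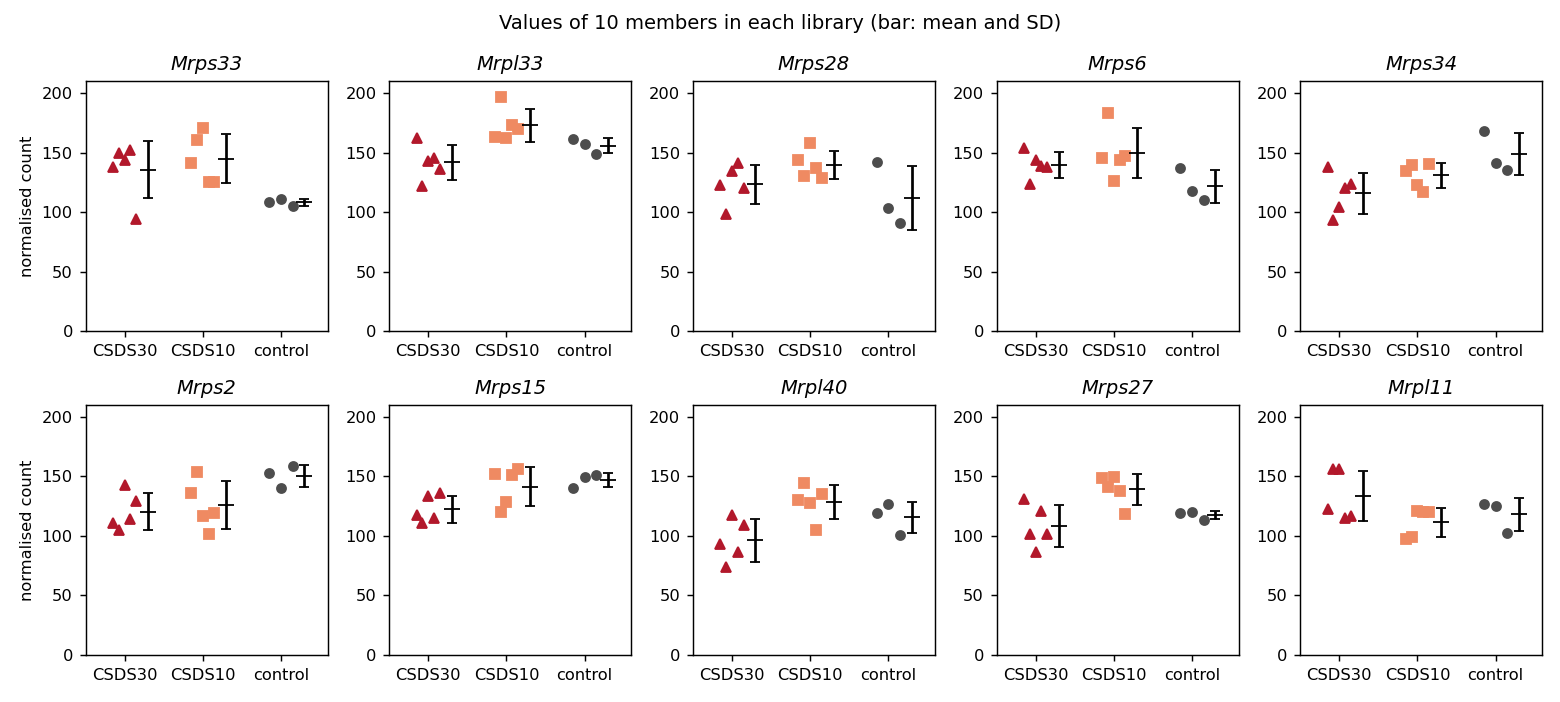
Normalised counts (y axis) of 10 genes in every CSDS30, CSDS10 and control library (x axis), with the mean and SD of each group as a bar. Mrps33 and Mrpl33 in CSDS10 and Mrps15 in CSDS30 do not overlap control, and 1 CSDS30 library of Mrps33 stands at 94.2 while the other 4 stand at 137.8 to 152.3.

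Mutations of 16 of these genes are known causes of human mitochondrial disease, with effects that include brain, heart and liver disorders. In mouse cortex their median level was 126.0 normalised counts, with Mrps22 highest (147.4) and Mrpl24 lowest (85.2). In CSDS10 against control 11 of 16 had log2 fold changes above 0, with a median of 0.051, beside 53.3% and 0.012 for all genes. In CSDS30 against control 6 of 16 did, with a median of -0.064, beside 34.1% and -0.072 for all genes. Under loess offsets it was 10 of 16 and 0.028, beside 48.6% and -0.005 for all genes. In CSDS30 against CSDS10 3 of 16 were above 0, with a median of -0.102, beside 31.6% and -0.082 for all genes. Under loess offsets it was 8 of 16 and -0.004, beside 49.8% and -0.001 for all genes. None passed the adjusted threshold.

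Mrps28, Mrps2 and Mrps34, described above, gave the largest differences from control in this set. Mrps14, the counterpart of a bacterial small-subunit protein, averaged 106 ± 26.6 in CSDS30 and 131 ± 22.4 in CSDS10, a log2 fold change of -0.32 ± 0.15 (SE), and Mrps16 averaged 95.4 ± 19.5 in CSDS30 and 116 ± 14.2 in CSDS10, a log2 fold change of -0.30 ± 0.14 (SE). Mrpl44, a double-stranded RNA-binding protein of the large subunit, averaged 112 ± 15.5 in CSDS30 and 135 ± 16.1 in CSDS10 and had -0.27 ± 0.13 (log2 fold change and SE). Mrpl3, Mrpl12 and Mrps22 stood at 143.7, 141.5 and 147.4 normalised counts, and Mrps7, Mrpl39 and Mrpl49 at 125.1, 127.4 and 128.7. Mrps25, Mrps23 and Mrpl50 were lower, at 104.2, 107.5 and 108.6. For Mrpl3 the means were 144 ± 24.7 in CSDS30, 145 ± 18.7 in CSDS10 and 141 ± 7.41 in control libraries. For Mrpl12, whose product also binds the mitochondrial RNA polymerase, they were 139 ± 19.5 in CSDS30, 146 ± 21.8 in CSDS10 and 138 ± 14.0 in control libraries.

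The names of 6 members do not describe their place plainly. Mrps30 and Mrps18a encode proteins that sit in the large subunit in mammals, Mrps18a, Mrps18b and Mrps18c are related copies of a single bacterial protein, the product of Mrps24 is the counterpart of a bacterial protein with another number, and that of Mrps36 is a subunit of the alpha-ketoglutarate dehydrogenase complex of the citric acid cycle. Mrps18a stood at 145.7 normalised counts, Mrps36 at 112.3, Mrps30 at 110.0, Mrps18c at 107.6, Mrps18b at 99.6 and Mrps24 at 97.4. The related copies thus had unequal levels, with Mrps18a above the other 2. Mrps24 averaged 90.4 ± 16.9 in CSDS30 and 109 ± 16.8 in control libraries, a log2 fold change of -0.27 ± 0.18 (SE). Mrps30 averaged 103 ± 12.4 in CSDS30, 120 ± 30.3 in CSDS10 and 105 ± 11.5 in control libraries.

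Genes that build, load and regulate the mitochondrial ribosome were read the same way. Sars2 and Twnk were read at the same summits as Mrps12 and Mrpl43, at 152.5 and 107.7 normalised counts. Their lists are therefore not independent of the members. Median levels were 119.3 normalised counts for 25 assembly and rRNA modification genes, 115.7 for 15 translation factors, 132.4 for 17 mitochondrial aminoacyl-tRNA synthetases, 109.7 for 5 ribosomal proteins under other names, 108.4 for 12 genes of mitochondrial DNA transcription and 108.7 for 13 nuclear regulators of mitochondrial genes. None of these genes passed the adjusted threshold in any comparison. In CSDS10 against control, log2 fold changes were above 0 in 16 of 25 assembly genes, 11 of 15 translation factors, 11 of 17 synthetases, 3 of 5 other ribosomal proteins, 7 of 12 transcription genes and 5 of 13 regulators. In CSDS30 against control they were above 0 in 11, 10, 4, 3, 7 and 1 of the same lists, and in CSDS30 against CSDS10 in 5, 5, 4, 1, 4 and 2. Of all genes 53.3% were above 0 in the first, 34.1% in the second and 31.6% in the third comparison. Under loess offsets these counts were 14, 11, 8, 3, 8 and 3 in CSDS30 against control, beside 48.6% of all genes. In CSDS30 against CSDS10 they were 13, 8, 10, 3, 9 and 6, beside 49.8% of all genes. That scaling removes the shift of all genes by construction, so the rise of these counts is no separate check of the lists.

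Rars2, the mitochondrial arginyl-tRNA synthetase, averaged 163 ± 17.0 in CSDS10 and 125 ± 16.8 in control libraries, a log2 fold change of 0.38 ± 0.13 (SE), and its groups did not overlap. Mars2, the methionyl-tRNA synthetase, averaged 103 ± 12.7 in CSDS10 and 80.1 ± 6.84 in control libraries. Malsu1, an assembly factor of the large subunit, averaged 154 ± 13.6 in CSDS10 and 124 ± 7.90 in control libraries. Both had groups apart. In CSDS10 against control, 2 of 17 synthetases and 1 of 25 assembly genes had higher values with groups apart. Over all genes the share was 1.65%. The genes named here were picked by smallest p. Taco1, an activator of cytochrome oxidase subunit translation, averaged 113 ± 17.0 in CSDS10 and 89.0 ± 11.7 in control libraries. Mars2 averaged 73.1 ± 8.77 in CSDS30 and 103 ± 12.7 in CSDS10, a log2 fold change of -0.49 ± 0.14 (SE). Rars2 averaged 124 ± 8.87 in CSDS30 and 163 ± 17.0 in CSDS10, a log2 fold change of -0.39 ± 0.11 (SE). Both had groups apart. In that comparison 2 of 17 synthetases, 1 of 12 transcription genes (Polrmt) and 1 of 13 regulators had lower values with groups apart. Over all genes the share was 1.01%.

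Among regulators, 12 of 13 had lower means on the log2 scale in CSDS30 than in control libraries, with a median log2 fold change of -0.165, beside -0.072 for all genes; under loess offsets it was 10 of 13 and -0.092, beside -0.005 for all genes. Pprc1, a coactivator related to PGC-1alpha, averaged 87.9 ± 17.9 in CSDS30 and 125 ± 14.6 in control libraries, a log2 fold change of -0.52 ± 0.17 (SE), with groups apart. In CSDS30 against control, 2 of 13 regulators and 1 of 15 translation factors (Mtfmt) had lower values with groups apart. Over all genes the share was 3.11%. Yy1 averaged 85.8 ± 26.0 in CSDS30 and 114 ± 11.8 in control libraries, a log2 fold change of -0.44 ± 0.18 (SE). Nrf1 averaged 108 ± 11.9 in CSDS30 and 132 ± 16.4 in CSDS10, a log2 fold change of -0.28 ± 0.12 (SE), again with groups apart. Tefm, the elongation factor of mitochondrial transcription, averaged 131 ± 22.9 in CSDS30 and 102 ± 18.7 in control libraries, a log2 fold change of 0.36 ± 0.16 (SE).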

How the data were processed

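Chromatin of prefrontal cortex was digested with micrococcal nuclease to single nucleosomes, precipitated with an H3K4me3 antibody, amplified in 6 to 8 PCR cycles and read as single 100-bp reads, per the labels' protocols. The submitters' processing notes name Trimmomatic, Bowtie2, MACS2 and DESeq2 and the builds mm10 and GRCm38.p5; the sources used here do not state their versions or roles, how duplicates were handled or the counting window. The signal values deposited by the authors are reads per summit divided by a size factor per library: 100% are whole multiples of a step per library (within 0.001 reads), from which reads were recovered. The score per summit deposited by the authors was not used. The input library was not analysed here.

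The members and lists were chosen with earlier results of these data known. Because the deposited signal is normalised, limma 3.58.1 was run on log2(value + 1) with a variance trend, over 152270 summits kept by filterByExpr (937 left out), with all 13 libraries in 1 fit, no covariate, and Benjamini-Hochberg adjustment at 0.05. Fold changes on this log2 scale computed from the deposited values understate changes of low summits. edgeR 4.0.16 and DESeq2 1.42.0 on the recovered reads (R 4.3.3) were alternatives. The code was tested on simulated data. All labels give a single batch date. Replicate numbers were not used as pairs: deviations of same-numbered libraries correlated from -0.287 to 0.368, with mixed signs. Neighbouring summits share fragments.

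Gene boundaries and starts came from RefSeq (GRCm38.p6), and summit positions are those of the deposited table (mm10); the table gives no exons or introns. All 78 member symbols matched the gene table and 69 the promoter table. Mtrfr, a translation factor, was not in the gene table. Named members are the 5 highest and 5 lowest by level, the 4 per direction with the smallest p in each comparison, up to 6 with groups apart, 16 disease genes and 6 whose name and place differ, and pathway genes are among the 3 with the smallest p of each list and comparison. Alternatives covered the pseudocount, filter, scaling, tool, groups fitted, replicate block, each library left out, and which summit stands for a gene.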

Additional observations from a re-analysis of the deposited data

Results flagged for a closer look

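At Mrps21, the counterpart of a bacterial small-subunit protein, CSDS10 replicate 2 stood apart from the other 4 CSDS10 libraries, at 107.3 normalised counts against 84.5 to 89.8. Its gap to the nearest library was 0.768 of the range of the group, above Dixon's 95% limit of 0.71 for 5 libraries. The same library had the highest median over all genes, at 107.3 normalised counts. At Mrps33, CSDS30 replicate 5 stood apart at 94.2 normalised counts, against 137.8 to 152.3 in the other 4 CSDS30 libraries, with a gap of 0.751 of the range. Without that library the direction of Mrps33 in CSDS30 against control was the same as with it. Of 82 groups of 5 libraries examined, over the named members and the members' library median, 2 were past the limit, and chance alone flags about 5%.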

How the results depend on the processing

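Over 28 alternatives, 0 summits passed the adjusted threshold in every comparison fitted. Without 1 library each, the members' median log2 fold change ran from 0.006 to 0.066 in CSDS10 against control, from -0.047 to -0.020 in CSDS30 against control and from -0.102 to -0.052 in CSDS30 against CSDS10, with 41 to 56, 26 to 37 and 20 to 29 of 78 members above 0. With loess offsets the medians were 0.061 in CSDS30 against control and 0.034 in CSDS30 against CSDS10, with 49 members above 0 in each. All genes then had medians of -0.005 and -0.001, with 48.6% and 49.8% above 0. Their shift was removed by construction, and the cause of the members' change was not tested. The replicate block gave medians of 0.041, -0.011 and -0.079, with 47, 35 and 23 above 0 and 0 summits called; the numbers do not pair the libraries. With all summits of a gene summed, the ratio of the members' median level to that of all genes was 0.914, to cytosolic ribosomal protein genes 0.854 and to oxidative phosphorylation genes 0.836, against 1.212, 1.043 and 0.986 for the strongest summit. Of 25 values of named members, 8 turned round in at least 1 of the alternatives, all through the choice of summit. The sum of summits gave -0.036 for Mrps6 and 0.009 for Mrps23 in CSDS10 against control, and -0.159 for Mrps6 in CSDS30 against control. The strongest summit within 2 kb or 500 bp of a gene boundary gave 0.111 for Mrps2 in CSDS30 against control. Both rules leave out the summit of Mrps2 that lies 131 bp past its annotated start. The strongest within 500 bp of a boundary gave -0.268 for Mrpl45 in CSDS30 against control and -0.056 in CSDS30 against CSDS10. For Mrpl45 that is not the summit 270 bp past its annotated start. The same rule gave for Mrpl34 0.009 in CSDS10 against control and -0.201 in CSDS30 against CSDS10. The last 2 values were the same within 500 bp of the annotated start, an alternative chosen after seeing the data. With 3 control libraries and 28 to 343 reads per summit, the typical standard error was 0.149 on the log2 scale against control and 0.129 between the defeat groups.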
